A study of Mus musculus with 30 samples.

Results

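S100a8, S100a9, Lcn2, Ngp, Camp, Ltf, Elane and Mpo are 8 genes whose protein products neutrophils carry, and they were followed here through regeneration of the mouse digit tip. They were picked by gene symbol from the 20321 genes of the deposited tables, with earlier results of these same data known, so their own time courses are given as a description and nothing is drawn from tests of them. The gene lists used below were also chosen with those results known, so their calls and counts are given as a description too. The study amputated the end of the distal phalanx (P3) of digit 3 of the hindlimb in adult male C57Bl/6 mice aged 9 to 10 weeks, and sequenced polyadenylated RNA of the whole regrowing digit tip. The 30 libraries came from 30 mice and cover 9 times after amputation (0, 3, 6, 12 and 24 h and then 3, 7, 14 and 21 d), with 3 mice at each time and 6 at 7 d. No genotype or agent differed between the groups, every mouse was amputated, and the 0 h digits served as the control. All digits were from the right foot except 3 of the 6 at 7 d (replicates 3, 4 and 6), which were from the left. A date in each sample title, whose meaning the labels do not give, divides the libraries into 16 from July to August (summer libraries) and 14 from November to January (winter libraries). The 3 h and 12 h libraries are all summer libraries and the 21 d libraries are all winter ones, so at these times season and time cannot be told apart.

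Neutrophils are made in bone marrow, and the granule genes are read there in sequence. Elane (neutrophil elastase) and Mpo (myeloperoxidase) fill the azurophil granules of promyelocytes, and their transcripts are largely gone from cells that leave the marrow. Ngp (neutrophilic granule protein), Camp (cathelicidin), Ltf (lactoferrin) and Lcn2 (lipocalin 2) belong to the specific granules of the next stages, again with most transcription before release. S100a8 and S100a9 encode the calgranulins, calcium-binding proteins that pair as calprotectin, and their transcripts stay abundant in mature neutrophils. Monocytes and stressed keratinocytes also make the calgranulins, and epithelia make Lcn2, so these 3 genes do not mark neutrophils alone. In RNA of a whole digit tip, fewer cells of a type and less RNA per cell cannot be told apart.

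S100a8 and S100a9 are neighbours on mouse chromosome 3 (GRCm38). S100a8 spans bases 90668978 to 90670035 on the plus strand in 3 exons, and S100a9 spans 90692632 to 90695721 on the minus strand, also in 3 exons. Camp (109847379 to 109849617), Ngp (110419747 to 110423012) and Ltf (111019271 to 111042767) all lie on chromosome 9. Lcn2 is on chromosome 2 (32384633 to 32388252), Elane on chromosome 10 (79886247 to 79888215) and Mpo on chromosome 11 (87793581 to 87804413). The exons of Mpo overlap those of another annotated gene, Gm11505, by 512 bases, so reads from that stretch could belong to either. The 250 bases before the RefSeq start (GRCm38.p6) of 4 members are printed because these genes stand for the classes that behaved differently below: the calgranulin pair, a specific granule gene and an azurophil granule gene. Capitals mark a TATA box (TATAAA) or a match to the C/EBP pattern TTNNGNAA, C/EBP proteins being the factors known for driving granule genes. The S100a8 window is chr3:90668821-90669070 on the plus strand, that of S100a9 chr3:90695722-90695971 on the minus strand, that of Ngp chr9:110419558-110419807 on the plus strand and that of Elane chr10:79886062-79886311 on the plus strand.
S100a8: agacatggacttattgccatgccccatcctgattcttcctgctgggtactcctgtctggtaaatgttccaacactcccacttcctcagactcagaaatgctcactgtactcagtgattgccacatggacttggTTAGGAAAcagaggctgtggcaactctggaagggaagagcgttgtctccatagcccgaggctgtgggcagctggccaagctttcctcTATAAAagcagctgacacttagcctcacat
S100a9: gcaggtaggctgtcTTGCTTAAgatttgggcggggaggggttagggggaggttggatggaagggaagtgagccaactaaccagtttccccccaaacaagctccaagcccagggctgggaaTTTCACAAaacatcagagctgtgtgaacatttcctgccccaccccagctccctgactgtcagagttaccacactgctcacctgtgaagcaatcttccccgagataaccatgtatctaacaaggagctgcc
Ngp: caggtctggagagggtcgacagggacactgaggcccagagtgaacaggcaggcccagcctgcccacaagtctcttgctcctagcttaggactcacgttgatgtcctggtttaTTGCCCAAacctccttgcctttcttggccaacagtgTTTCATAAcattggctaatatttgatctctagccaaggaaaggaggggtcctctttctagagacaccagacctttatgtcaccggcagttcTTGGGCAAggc
Elane: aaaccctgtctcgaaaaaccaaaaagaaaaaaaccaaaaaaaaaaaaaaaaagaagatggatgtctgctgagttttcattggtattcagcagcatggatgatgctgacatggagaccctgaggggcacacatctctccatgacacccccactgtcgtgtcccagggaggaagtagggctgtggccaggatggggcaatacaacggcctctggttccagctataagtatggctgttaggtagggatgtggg
For S100a8, Ngp, Elane and Ltf the last part of the window already lies inside the longer GENCODE gene model. Most of the Camp and Mpo windows and all of the Lcn2 window lie inside the gene models of these genes. Both strands were searched, and 36.8% of the 32851 RefSeq mouse windows of this length hold a C/EBP match. S100a8 has 1 C/EBP match, at -117 to -110 from the start, and the only TATA box among the members' windows, at -30 to -25 (12.4% of all windows have one). S100a9 has 2 C/EBP matches, Ngp 3, Ltf 2 and Lcn2 1, while the windows of Camp, Elane and Mpo have none. The letters GAGGAA, the core that the myeloid factor PU.1 binds, occur in 23.3% of all windows and, among the members, in those of S100a8, Lcn2, Ltf, Elane and Mpo, and none of these matches overlaps a capitalised one. These are letter matches only, without any measurement of binding.

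Total expected counts, the read numbers that RSEM assigned to genes, ran from 3167625 to 16277816 per library (median 6103688). Levels are given as CPM, counts divided by the library size after TMM scaling, and comparisons between genes as TPM, the deposited unit that corrects for gene length. A limit of 3 counts, the most that a count of 0 allows, corresponds to between 0.193 and 1.1 CPM depending on the library, and such limits and all intervals below cover counting error only. There were 3 libraries that stood apart for these genes and are named wherever a result rests on them. Replicate 3 at 21 d was low in the calgranulins, replicate 1 at 7 d held most of the counts of Ngp, Camp and Ltf, and replicate 1 at 3 d held most of the counts of Elane and Mpo. Of the 18 mature neutrophil genes in the tables, the highest count in any library was 7 for Fpr1 (formyl peptide receptor), 10 for Fpr2, 6 for Stfa2l1 and 15 for Retnlg. Others were present in all libraries, Cxcr2 between 5.57 and 37.6 CPM and Mxd1 between 48.4 and 141.3 CPM, and the summed level of the list lay between 119.5 and 256.0 TPM per library. At 0 h this sum was already 137.0 to 170.6 TPM, while that of S100a8 and S100a9 was 3.04 to 3.91 TPM. Which cells held the list transcripts was not tested, so the list is not read as a measure of neutrophils alone.

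S100a9 had the highest mean TPM of the members at every time from 24 h to 14 d. Its level at 0 h was 0.72, 0.64 and 0.80 CPM in the 3 mice. It was 0, 4.25 and 1.81 CPM at 3 h, 6.92, 3.55 and 4.31 CPM at 6 h, and 10.6, 3.81 and 12.7 CPM at 12 h. From 6 h to 14 d every library was above every 0 h library.
At 24 h S100a9 stood at 17.9, 14.1 and 63.6 CPM, and at 3 d at 82.8, 52.9 and 26.0 CPM. At 7 d the 6 mice ranged from 37.0 to 132.9 CPM with a median of 100.9 CPM, its highest median of any time. It was 50.3, 87.2 and 73.8 CPM at 14 d and 57.5, 26.1 and 0.684 CPM at 21 d, where replicate 3 was back within the range of 0 h and the other two were not.
The log2 fold change of S100a9 against 0 h was 5.43 ± 0.998 (SE, from the edgeR fit) at 24 h, 6.22 ± 1.007 at 3 d, 7.02 ± 0.994 at 7 d, 6.59 ± 1.012 at 14 d and 5.27 ± 0.989 at 21 d. The last value was 5.84 without replicate 3 at 21 d and 4.23 without replicate 1 at 21 d, and that at 24 h was 4.47 without replicate 3 at 24 h. Ordered by mean level, 7 d (94.8 ± 38.9 CPM, SD, n = 6) came first, then 14 d (70.4 ± 18.7), 3 d (53.9 ± 28.4), 24 h (31.9 ± 27.5) and 21 d (28.1 ± 28.5, each n = 3). Each of these neighbours differed by less than the larger of their SDs.

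S100a8 also rose, with a lower mean than S100a9 at every time, but its median was highest at 14 d and that of S100a9 at 7 d. In replicate 1 at 3 h and replicate 2 at 12 h (6.89 against 3.81 CPM), S100a8 was above S100a9. S100a8 had counts of 0, 2 and 0 at 0 h and of 4, 12 and 0 at 3 h. The 6 h libraries held 3.68, 0.709 and 2.15 CPM, the 12 h libraries 3.17, 6.89 and 6.70 CPM, and the 24 h libraries 6.85, 6.12 and 10.3 CPM. Its values were then 9.34, 12.6 and 16.5 CPM at 3 d and 21.4, 23.7 and 21.7 CPM at 14 d.
The 3 mice at 14 d lay within a narrow band (22.2 ± 1.25 CPM, SD, n = 3), whereas the 6 mice at 7 d spread from 2.69 to 26.4 CPM around a median of 8.85 CPM. At 21 d the values were 22.4, 9.59 and 0.342 CPM, with replicate 3 again the low one. From 6 h on, every library was above every 0 h library, although replicate 3 at 21 d was so on 2.97 counts.
Since the 0 h group held 2 counts in all, its ratio to later times is given with an exact 95% counting interval on the summed counts. The summed level at 24 h was 104.6 times that at 0 h (28.4 to 873.2), at 7 d 158.4 times (43.6 to 1312) and at 14 d 314.0 times (86.5 to 2599). Per length, the 7 d medians were 420.1 TPM for S100a9, 44.8 TPM for S100a8 and 21.7 TPM for Lcn2, with ranges of 196.4 to 530.0, 14.9 to 174.1 and 10.4 to 74.5 TPM.

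Lcn2, which binds bacterial siderophores and so withholds iron, had its highest mean at 7 d. It stood at 0.64, 0.426 and 1.28 CPM at 0 h. At 24 h it was 5.30, 6.27 and 3.04 CPM, and at 3 d 3.74, 4.70 and 14.3 CPM. The 6 mice at 7 d ranged from 4.44 to 27.7 CPM with a median of 9.46 CPM, all above every 0 h library, and replicate 1, which also held the granule genes described below, was the highest.
By 14 d the values were 0.883, 2.47 and 3.38 CPM, of which 2 exceeded every 0 h library, and at 21 d they were 1.30, 0.322 and 0 CPM. At 14 d and 21 d the Lcn2 values therefore overlapped those of 0 h while 2 or 3 libraries of each time kept S100a9 above it. The log2 fold change of Lcn2 against 0 h was 3.92 ± 0.84 (SE) at 7 d, 3.49 without replicate 1 at 7 d, 1.59 ± 0.85 at 14 d and -0.45 ± 0.90 at 21 d (0.058 without replicate 3 and -1.90 without replicate 1 at 21 d).

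**Figure D1:**
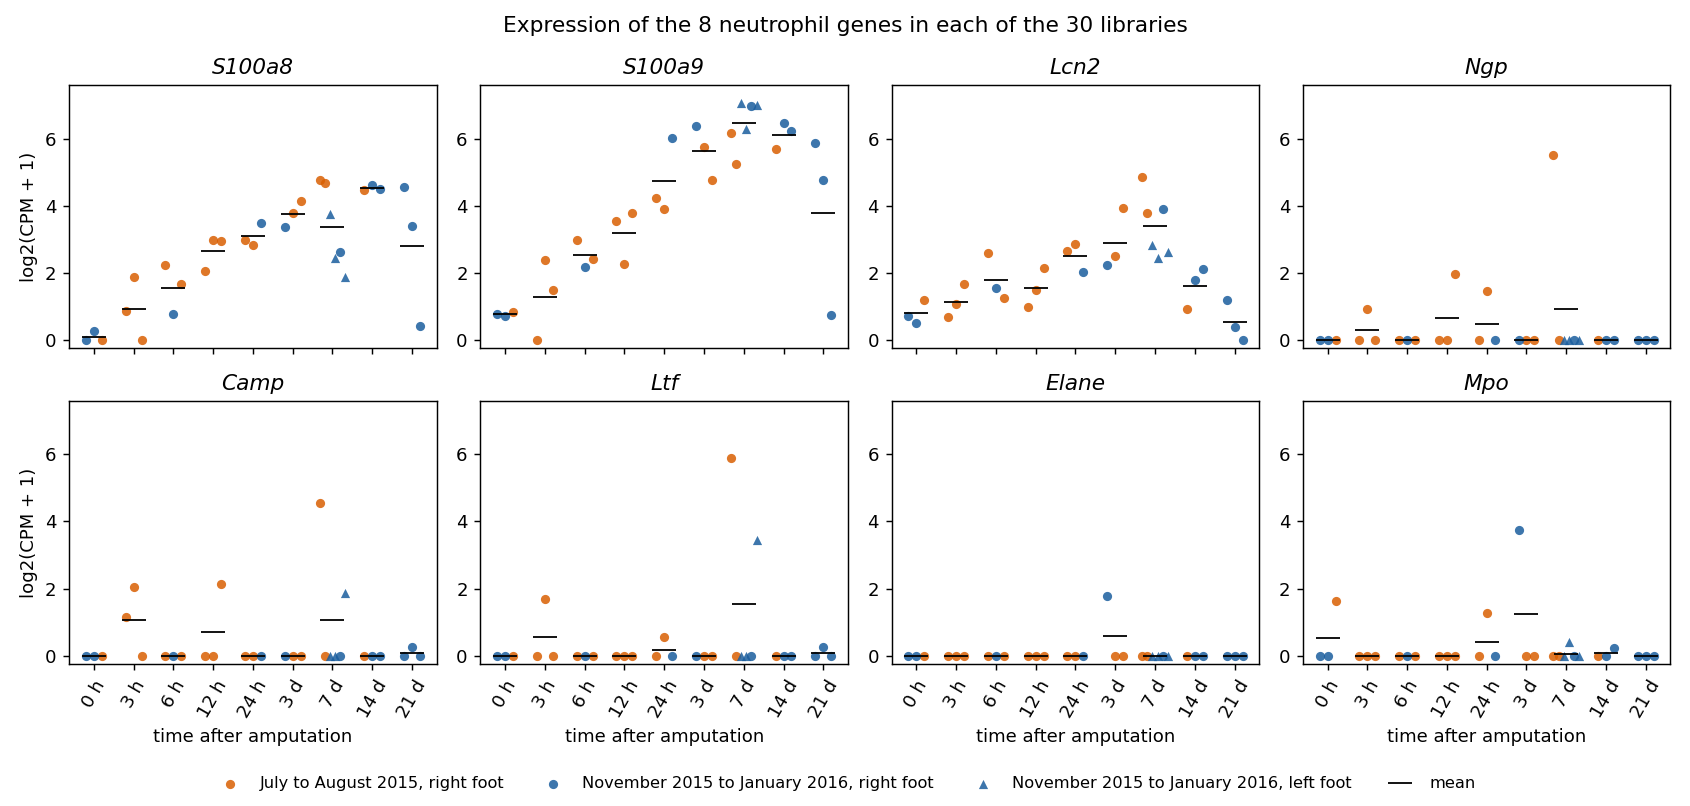
Level of each of the 8 genes, as log2(CPM + 1), in each of the 30 libraries (points) against time after amputation, coloured by the season of the title date, with triangles for the left foot and dashes for the time-point mean. S100a8, S100a9 and Lcn2 form continuous courses with 7 d values of 2.69 to 26.4, 37.0 to 132.9 and 4.44 to 27.7 CPM, while the other 5 genes lie at 0 in 24 or more libraries.

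Among the other specific granule genes, 1 library held most of the counts. Ngp was detected in 4 of 30 libraries, with 4 counts in replicate 2 at 3 h, 17 in replicate 3 at 12 h, 11 in replicate 2 at 24 h and 173 in replicate 1 at 7 d. The last library held 84.4% of all Ngp counts, equal to 49.4 CPM of its unscaled total (exact 95% interval 42.3 to 57.3). The other 5 mice at 7 d had 0 counts.
Ltf, the iron-binding lactoferrin, was detected in 5 libraries, with 224 counts in replicate 1 at 7 d (73.9% of the total, 64.0 CPM of the unscaled library, 55.9 to 72.9) and 63.1 in replicate 6 at 7 d. The other libraries with any Ltf were replicate 2 at 3 h (9.98 counts), replicate 2 at 24 h (3 counts) and replicate 2 at 21 d (3 counts).
Camp, the cathelicidin antimicrobial peptide, was detected in 6 libraries, with 86 counts in replicate 1 at 7 d (58.9% of the total, 24.6 CPM of the unscaled library, 19.6 to 30.3). It also had 6 and 14 counts in replicates 1 and 2 at 3 h, 20 in replicate 3 at 12 h, 17 in replicate 6 at 7 d and 3 in replicate 2 at 21 d. None of the 3 genes had a count at 0 h, 6 h, 3 d or 14 d.
Replicate 1 at 7 d was among the shallower libraries (3502002 expected counts). Its S100a9 level, 70.7 CPM, was below the median of the 7 d libraries, and its S100a8 level, 26.4 CPM, was the highest of them.

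The same library was also the highest of the 30 by count for 5 of the 10 genes of the list of other granule genes. It held 33 counts of Cd177 (a neutrophil surface and granule protein), 37 of Mmp8 (neutrophil collagenase), 12 of Itgb2l, 16 of Olfm4 (olfactomedin 4) and 40 of Chi3l3 (the older symbol of Chil3). Mmp9, described below, stood at 1943 CPM there, the highest of the 7 d libraries.
Replicate 6 at 7 d, the other library with Ltf and Camp, held 2.53 CPM of Cd177 but 0 counts of Ngp. Of the markers of red cell precursors, replicate 1 at 7 d had 0 counts of Klf1, Slc4a1, Alas2, Rhd and Trim10 but 24.1 of Hemgn (6.22 CPM, the second highest library), 6 of Rhag (1.55 CPM, the highest library) and 1 of Epor. Of the markers of B cell precursors, Vpreb1, Rag1, Pax5 and Cd79a had 0 counts there, while Dntt had 2 and Blnk 140 (36.3 CPM, within its range of 16.1 to 58.0 CPM over the 30 libraries). The library had 0 counts of Elane and Mpo. It had 8 counts of Prtn3 (proteinase 3), the most of any library. Its summed monocyte and macrophage markers stood at 404.1 TPM, rank 2 of 30, and its platelet markers at 87.7 TPM, rank 1, and the part of these cells in the granule signal was not tested.

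The azurophil granule members Elane and Mpo had their highest counts in a different library. Elane had 25 counts in replicate 1 at 3 d, 2.48 CPM of its unscaled total (exact 95% interval 1.60 to 3.66), and 0 in the other 29 libraries. Mpo had 127 counts in that library, 12.6 CPM (10.5 to 15.0) and 83.0% of its total. The remaining Mpo counts were 13 in replicate 3 at 0 h, 9 in replicate 2 at 24 h, 2 in replicate 4 at 7 d and 2 in replicate 3 at 14 d.
Ctsg (cathepsin G), from the granulocyte precursor list and likewise an azurophil granule protease, also had its highest count there, 21, and Ms4a3 its only count, 1. Of the same list, Prtn3 had 3 counts there, against 8 in replicate 1 at 7 d and 6 in replicate 3 at 3 d. Fcnb, Cebpe and Gfi1 had 0 counts in replicate 1 at 3 d, as did Ngp, Camp and Ltf. Of the erythroid markers, Rhag (12.5 counts) and Trim10 (5 counts) had their highest counts of any library there, Hemgn had 21.2, Alas2 3, Slc4a1 and Epor 1 each, and Klf1 and Rhd 0. The platelet gene Ppbp had 39 counts, and the part of these cells in the Elane and Mpo counts was not tested.
By Pearson correlation of log2(CPM + 1) over the 30 libraries, the 5 tested genes most like Elane were Krt27 (r = 0.70), Tchhl1 (0.66), Krt15 (0.56), Mcam (0.55) and Tchh (0.54). All 5 had their highest count in replicate 1 at 3 d. Krt27, Tchhl1 and Tchh are known from the hair follicle. Since Elane is present in 1 library, these r values describe that library.

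**Figure D2:**
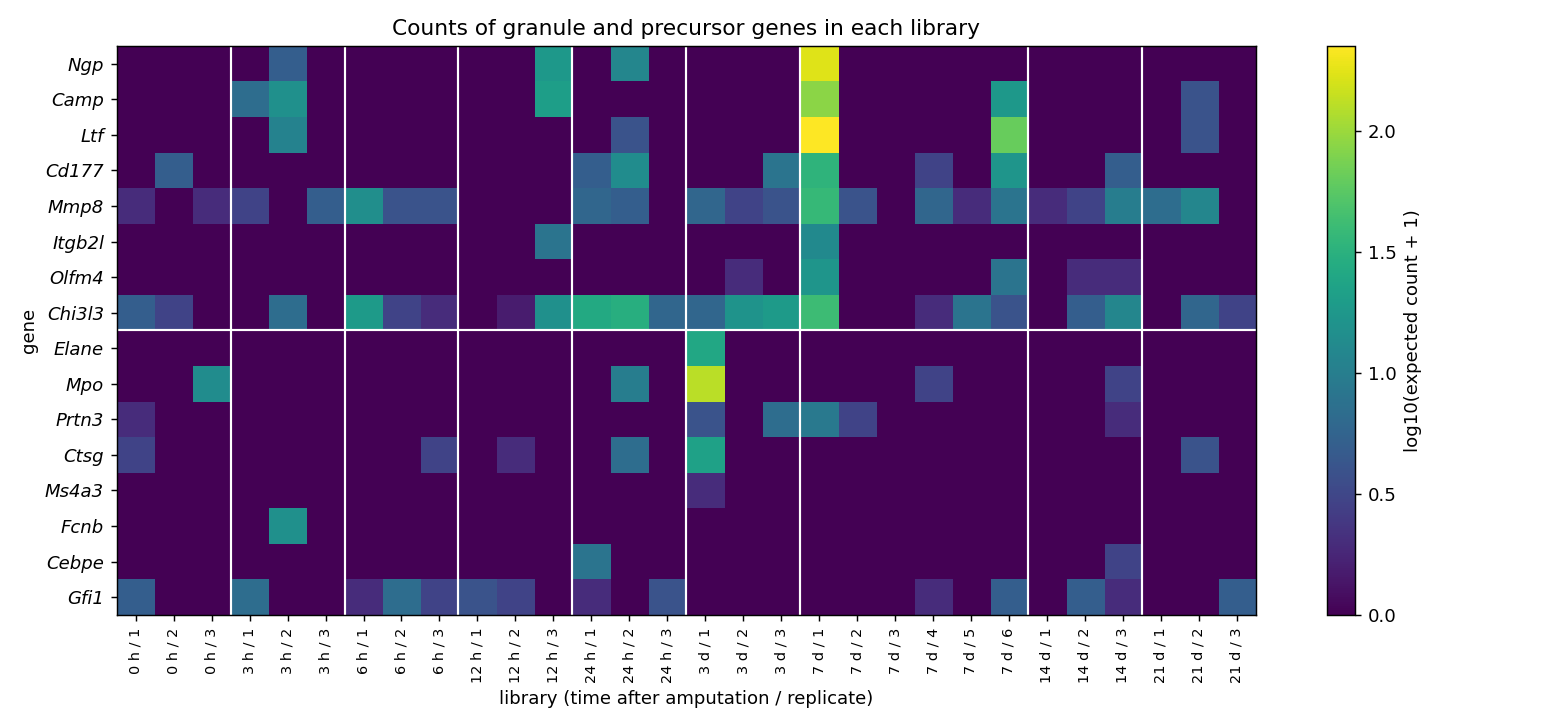
Expected counts, as log10(count + 1), of specific granule genes (upper block) and azurophil granule and precursor genes (lower block) in each library, ordered by time and replicate. The bright column at 7 d, replicate 1, holds 173 Ngp, 86 Camp and 224 Ltf counts, and the one at 3 d, replicate 1, holds 25 Elane, 127 Mpo and 21 Ctsg counts.

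Of the 8 members, 6 passed the filter on low counts, and Elane and Mpo did not. In the edgeR F-test over the 9 time points, 4 of these 6 (S100a8, S100a9, Lcn2 and Ltf) were called at an adjusted p under 0.05, beside 9.01% of all 13793 genes tested. Against 0 h, 2 were called higher at 24 h (all genes 0.406%), 2 at 3 d (0.486%), 3 at 7 d (1.68%), 2 at 14 d (1.48%) and 2 at 21 d (1.73%). Nothing is read from these counts, because the members were chosen on this contrast. Without the 3 libraries set apart above, the F-test called 3 of them, and Ltf was the one lost. Replicate 1 at 7 d had been set apart because it held most counts of Ltf (73.9%), Ngp and Camp, so this loss is no independent result.

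Of a list of 19 genes of mature neutrophils outside the members, 18 were in the tables and 15 passed the filter, among them 2 called over the time course (13.3%, beside 9.01% of all genes). DESeq2 called 6 of the 15, and 9 had an unadjusted p under 0.05 in edgeR.
Clec4d, a C-type lectin of neutrophils and macrophages, was higher than at 0 h at 24 h, 7 d, 14 d and 21 d. It stood at 0.80, 0.746 and 0.32 CPM at 0 h, 9.19, 4.39 and 46.5 CPM at 24 h, and 16.6, 10.7 and 33.9 CPM at 14 d, where no library overlapped 0 h. Its log2 fold change was 4.89 ± 0.91 (SE, edgeR adjusted p = 0.00477) at 24 h, 3.70 ± 0.84 (0.0129) at 7 d and 4.93 ± 0.91 (0.00184) at 14 d. The call at 14 d held under all 38 alternatives (adjusted p up to 0.0224), that at 24 h was lost without replicate 3 at 24 h (0.0688), without replicate 1 at 0 h (0.057) or with only the libraries of these times (0.0607), and that at 7 d was lost without any 1 of the 0 h libraries (0.0642 to 0.089). The call at 21 d was lost without any 1 of the 0 h libraries (0.0868 to 0.118) or without replicate 2 at 21 d (0.174).
Slfn4, an interferon-responsive gene of myeloid cells, stood between 0.959 and 2.16 CPM in the 3 mice at 0 h and between 6.01 and 23.3 CPM in the 6 mice at 7 d, with replicate 1 the highest. Its log2 fold change at 7 d was 2.83 ± 0.62 (edgeR adjusted p = 0.00901, and 0.0763 or 0.0691 without replicate 2 or 3 at 0 h). Clec4e, the lectin Mincle, had 0 counts in all 3 libraries at 0 h and passed the test at 14 d (edgeR adjusted p = 0.0244, and 0.0546 to 0.15 without any 1 of the 0 h libraries or without replicate 1 or 3 at 14 d), where its summed level was at least 42.1-fold higher than the limit of 3 counts over the 0 h group.
Cxcr2, the receptor through which neutrophils follow chemokines into tissue, was already at 22.6, 31.0 and 14.7 CPM at 0 h and did not pass the test at any time (log2 fold change at 7 d -0.33 ± 0.43). Csf3r, the receptor for the neutrophil growth factor G-CSF, was at 2.35 ± 0.69 on the log2 scale at 7 d (edgeR adjusted p = 0.0707) and Retnlg at 2.57 ± 1.67 (0.558). The median log2 fold change of the 15 genes was 2.13 at 24 h, 0.62 at 3 d, 1.87 at 7 d, 1.23 at 14 d and 0.51 at 21 d, and that of all tested genes lay between -0.015 and 0.011 at every time. With Clec4e set at its bound in place of the fitted value, these medians were the same.
At 3 d none of the 15 was called by edgeR, with 5 at an unadjusted p under 0.05 and 3 called by DESeq2. Without the 3 libraries set apart, edgeR called 2 at 3 d.

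Of the other granule genes, 7 of 10 passed the filter and 1, Mmp9 (gelatinase B), was called over the time course. Mmp9 is a gelatinase of neutrophil tertiary granules and is also made in quantity by osteoclasts. It stood at 7.52, 6.61 and 24.2 CPM at 0 h, 413.5, 330.0 and 422.5 CPM at 3 d and between 675.1 and 1943 CPM at 7 d, without overlap, and its log2 fold change at 7 d was 6.51 ± 0.61 (SE). Pglyrp1, a peptidoglycan-binding granule protein, was at -0.69 ± 0.63 at 7 d and the stefin Stfa1 at -0.01 ± 0.82, and neither passed the test. Of the 8 granulocyte precursor genes, Rab44 and Myb passed the filter, and none was called over the time course by edgeR, with 0 at an unadjusted p under 0.05 and 0 called by DESeq2.
Slpi, the secreted inhibitor of neutrophil elastase and cathepsin G, was the gene most like S100a9 over the 30 libraries (r = 0.85), ahead of Emb (0.84), Slc16a3 (0.82), Spink12 (0.81) and Apln (0.81). It stood at 0.24, 1.066 and 0.96 CPM at 0 h and 20.3, 22.6 and 24.0 CPM at 14 d, and passed the test at 24 h, 3 d, 7 d, 14 d and 21 d, with a log2 fold change of 4.43 ± 0.74 (SE, edgeR adjusted p = 0.000613) at 7 d. The calls at 3 d, 7 d and 14 d held under all 38 alternatives, and that at 24 h was lost without replicate 3 at 24 h (0.0672) or any 1 of the 0 h libraries (0.0736 to 0.223). That at 21 d was lost without replicate 1 at 0 h (0.0551) or with only the libraries of these times (0.0507). It was the only 1 of the 5 tested genes of the inhibitor and receptor list that passed at these times, and Tlr4, a receptor for the calgranulins, was at -1.02 ± 0.46 at 7 d (0.308).
For Ngp the 5 most like genes were Gpr26 (r = 0.66), Chi3l3 (0.63), Atp6v1a (0.62), Prox2 (0.59) and Sema6b (0.58). Replicate 1 at 7 d held 84.4% of the Ngp counts, so these r values rest largely on that library. Gpr26 and Chi3l3 had their highest count there, and Atp6v1a, Prox2 and Sema6b at 21 d, where Ngp had 0 counts. Of the signals that recruit neutrophils, 4 of 5 tested were called over the time course (all genes 9.01%), and Il1b and Cxcl2 were higher than at 0 h at 7 d and 14 d under all 38 alternatives. This list too was chosen with earlier results of these data known, and Il1b was named after its values were seen. Il1b, the inflammatory cytokine interleukin 1 beta, had a log2 fold change of 5.63 ± 1.012 (SE) at 7 d and Cxcl2, a ligand of Cxcr2, of 6.56 ± 1.24.

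**Figure D3:**
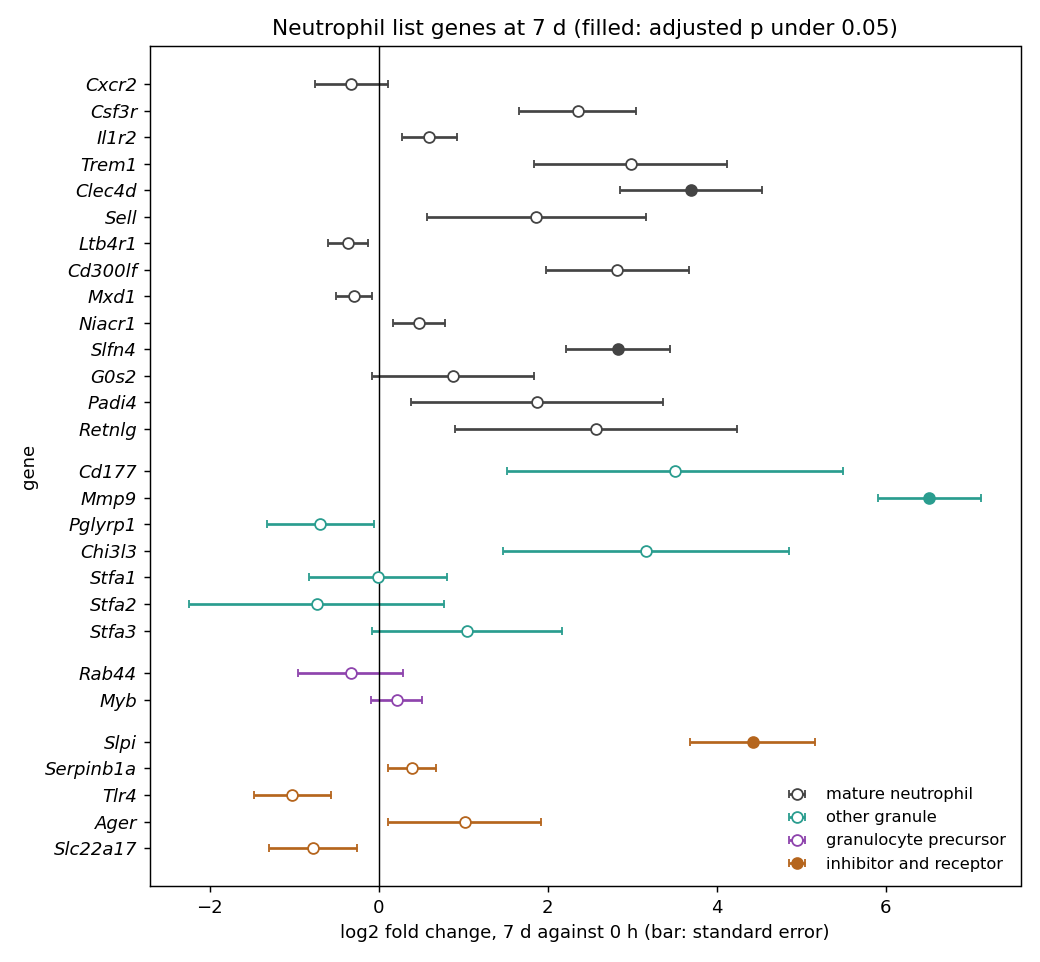
Log2 fold change at 7 d against 0 h (points, with standard errors as bars) of list genes that passed the filter, except Clec4e, which had 0 counts at 0 h. Filled points passed the edgeR test at an adjusted p under 0.05. Clec4d, Slfn4, Mmp9 and Slpi are filled, at 3.70, 2.83, 6.51 and 4.43, and the other genes of the 4 lists are open.

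The balance between S100a8 and S100a9 differed between the seasons of the title dates. In the 13 summer libraries with at least 20 counts of the pair, S100a8 made up between 19.3% and 64.4% of them (median 33.3%), and in the 11 such winter libraries between 2.08% and 28.0% (median 13.9%). At 7 d the shares were 27.2% (exact 95% interval 22.8 to 32.0) and 40.0% (34.9 to 45.2) in the 2 summer mice. In the 4 winter mice they were 8.63% (6.76 to 10.8), 5.42% (3.63 to 7.73), 3.97% (2.85 to 5.37) and 2.08% (1.22 to 3.31).
The summer and winter mice at 7 d thus did not overlap in this share, nor in the CPM of either gene. In TPM the S100a9 levels did overlap, at 346.5 TPM in replicate 1 (summer) and 330.2 TPM in replicate 4 (winter). S100a8 was at 26.4 and 24.6 CPM in summer and 12.6, 4.44, 5.14 and 2.69 CPM in winter, and S100a9 was at 70.7 and 37.0 CPM in summer and 132.9, 77.6, 124.1 and 126.6 CPM in winter. The third winter mouse at 7 d (3.97%) was of the right foot, as were the summer mice.
The mean difference in log2(S100a9/S100a8), winter minus summer, over the 5 times with both seasons was 1.67 (n = 18 libraries, 9 of each season). It was 1.26 at 6 h, 1.33 at 24 h, 1.79 at 3 d, 3.38 at 7 d and 0.59 at 14 d. An exact permutation of the season within time points gave a two-sided p of 0.000823, the smallest that its 1215 arrangements allow. Without the left-foot libraries it was 1.71 (exact permutation p = 0.00412, again the smallest possible). This comparison was chosen after the values had been seen. Nothing is therefore drawn from these p-values, and the differences are a description of these libraries.
The 21 d libraries, all from winter, had shares of 28.0%, 26.9% and, from 9 counts, 33.3%. In the edgeR test of a time course by season interaction over 13587 genes (0.883% called), the adjusted p was 0.318 for S100a8, 0.281 for S100a9 and 0.735 for Lcn2.

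**Figure D4:**
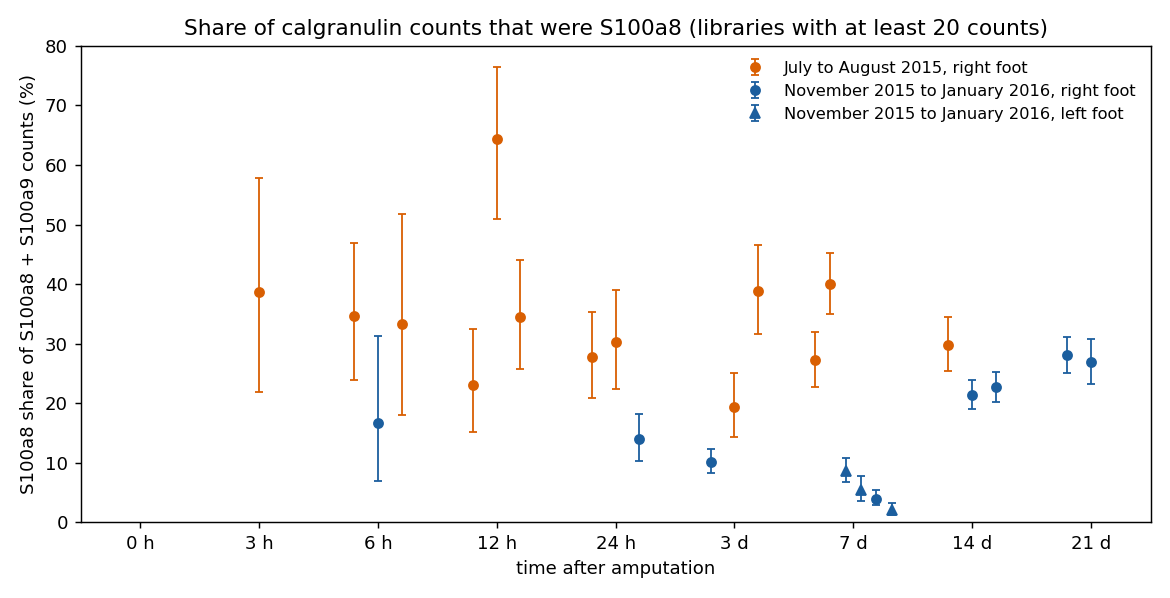
Share of S100a8 among the S100a8 and S100a9 counts of each library with at least 20 counts (percent, with exact 95% intervals), against time after amputation, coloured by season, with triangles for the left foot. At 7 d the summer libraries lie at 27.2% and 40.0% and the winter libraries between 2.08% and 8.63%.

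Whether the members varied together with other cell markers among mice of the same time was asked with 24 relations, 8 members against the mean log2(CPM + 1) of mature neutrophil (15 genes), marrow erythroid (2 genes) and activated keratinocyte (6 genes) lists, each taken as a deviation from its time-point mean. None passed at an adjusted p under 0.05, the lowest adjusted p was 0.518, and 1 of the 24 had an unadjusted permutation p under 0.05. Elane had counts in 1 library, at a time with 3 mice, so its relations could not have passed. Ngp, Camp, Ltf and Mpo were at 0 in 24 to 26 libraries, so their relations had little room to pass either. Across the 30 mice, the strongest relation by p was that of Lcn2 to the mature neutrophil genes, with Pearson r = 0.49 (permutation p = 0.0216) and Spearman rho = 0.38 (permutation p = 0.0734, adjusted 0.731). It was 0.39 without the 2 farthest libraries, 0.60 within the summer libraries (n = 14) and 0.28 within the winter libraries (n = 11). S100a9 had r = 0.16 and rho = 0.11 with the mature neutrophil genes (permutation p = 0.595 and 0.622, adjusted 0.840 and 0.878), where r was -0.11 without replicate 3 at 21 d. With the activated keratinocyte genes, keratins of wounded epidermis together with Sprr genes, S100a9 had r = 0.43 and rho = 0.27 (permutation p = 0.149 and 0.256, adjusted 0.596 and 0.731). The keratinocyte r was 0.37 without the 2 farthest libraries, 0.13 in summer and 0.58 in winter, and 0.19 without replicate 3 at 21 d. At 21 d, 4 of 6 tested activated keratinocyte genes were higher than at 0 h (all genes 1.73%), Krt6a by 1.55 ± 0.33 and Krt6b by 2.59 ± 0.51 on the log2 scale (SE, edgeR adjusted p = 0.00791 and 0.00314, and 0.285 and 0.077 without replicate 1 at 21 d). The Krt6a call was also lost without replicate 1 or 2 at 0 h or with only the libraries of these times (0.0649 to 0.0762). Krt6b was named after its values were seen. Krt16 and Krt17 were the other genes called at 21 d, and Sprr1a and Sprr1b were not called. At 7 d, where S100a9 had its highest median, 0 of the 6 were called higher (all genes 1.68%) and Sprr1b was called lower. Their median log2 fold change at 7 d was 0.042. The part of these genes in the calgranulin levels was not tested.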

How the data were processed

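RNA of 30 digit tips was sequenced as single-end reads (ligation-mediated libraries, polyadenylated RNA). Per the labels and the study's methods, the authors called bases with CASAVA 1.8.2, used Bowtie to align the reads with the Ensembl gene set, and had RSEM 1.2.3 derive an expected count and a TPM for every gene (build mm10). Expected counts and TPM were deposited per library. A deposited table of average signal (TPM scaled by the authors and averaged per time) was read but not analysed. Reads shared by near-identical genes are divided by RSEM's model. Amplified reads carry no molecular identifiers.

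Expected counts were rounded. Genes passing edgeR's filterByExpr (13793) were fitted with edgeR 4.0.16 (quasi-likelihood, TMM, all 30 libraries, time as the only term), as an F-test over 9 times and each time against 0 h, with Benjamini-Hochberg adjustment at 0.05. The fit was checked on simulated counts. DESeq2 1.42.0 was an alternative. The interaction of time with season used 13587 genes. Relations used 100000 permutations within time points, two-sided, adjusted over 24. Exact intervals are Clopper-Pearson at 95%. R 4.3.3, Python 3.11.15 and scipy 1.17.1 were used.

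The members and the gene lists were chosen with earlier results of these data known. The named genes were all 8 members, the genes passing the filter in the mature neutrophil, other granule and precursor lists, the 3 most abundant of each other list, and the 5 genes with a mean of at least 1 CPM most like S100a9, Ngp and Elane; the text gives a part of these, and Krt6b, Il1b, Ppbp, marrow cell markers and genes with single-library counts were added after their values were seen. Ly6g, Epb42 and Ahsp were not analysed here. Sequences are from RefSeq, GRCm38.p6 (8 of 8 members matched), and coordinates from GENCODE on GRCm38. The study's methods give as many mice as there are libraries at each time. The labels carry no replicate numbers, and replicates were numbered within a time. The titles of replicate 3 at 0 h and replicate 2 at 12 h differ only in the time, and what their shared tag means is not given in the sources used here.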

Additional observations from a re-analysis of the deposited data

Results flagged for a closer look

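At 7 d, the time with 6 mice, the gap between the extreme library and the next was compared with the group's whole range on the log2(CPM + 1) scale for 19 measures, of which chance alone sets apart about 1 in 20. Replicate 1 stood apart for Ngp, where the gap took up 1 of the range because the other 5 libraries were at 0, and for the mean of the other granule genes, where it took up 0.725 of the range. Replicate 4 stood apart for Mpo (a gap of 1 of the range), which there rests on 2 counts. A gene with counts in only 1 of the 6 libraries always has a gap of 1, so the rate of 1 in 20 does not apply to Ngp and Mpo.

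Between seasons, the time courses of 2 neutrophil-attracting chemokines differed in the edgeR interaction test, Cxcl1 with an adjusted p of 0.0452 and Cxcl5 with an adjusted p of 0.0414 (0.883% of 13587 genes were called). Cxcl1 stood at 145.1 CPM in the winter library at 3 d and at 14.4 and 31.1 CPM in the summer ones. At 14 d, Cxcl1 was at 1.41 CPM in the summer library and at 23.4 and 29.1 CPM in the winter ones. Cxcl5 at 14 d was at 0 CPM in the summer library and at 24.0 and 32.7 CPM in the winter ones.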

How the results depend on the processing

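Of the 15 mature neutrophil genes tested, 2 were called over the time course. This count was 1 at an adjusted p under 0.01, 6 with DESeq2, 4 with season as a covariate and 4 without the left-foot libraries, and ranged from 1 (without replicate 2 or 3 at 0 h) to 4 (without replicate 1 or 3 at 7 d) when 1 library was left out. The counts higher than 0 h were 1 at 24 h, 0 at 3 d, 2 at 7 d, 3 at 14 d and 1 at 21 d. They were 4, 3, 5, 6 and 2 with DESeq2. At an adjusted p under 0.01 they were 1 at 7 d, 1 at 14 d and 0 at 21 d. With season as a covariate they were 1 at 3 d and 2 at 21 d, without the left-foot libraries 2 at 3 d, and with only the libraries of both times 0 at 24 h and 5 at 14 d. Without the 3 libraries set apart (a setting added after the data were seen) they were 2 at 3 d and 2 at 21 d. Leaving out 1 library gave 0 to 1 at 24 h (0 without replicate 1 at 0 h or replicate 3 at 24 h), 0 to 1 at 3 d, 0 to 4 at 7 d (0 without replicate 2 or 3 at 0 h), 1 to 4 at 14 d and 0 to 2 at 21 d. The cause was not tested. With DESeq2 size factors, no filter or a filter of 10 counts in 6 libraries these counts stayed within 1.5 times. The 1 other granule gene and the 0 precursor genes called over the time course, and the 0 relations passing in each list, stayed so under all alternatives run. The 2 list genes with a season interaction became 3 without the left-foot libraries. The log2 fold change of S100a8 depended on its 0 h library with 2 counts: at 7 d it was 7.13, and 6.47 to 9.48 when 1 library was left out, the highest without replicate 2 at 0 h. That of S100a9 at 3 h was 1.46 and -0.06 without replicate 2 at 3 h. Depth limits Ngp, Camp, Ltf, Elane and Mpo, whose counts of 0 allow up to 3 counts per library. No paired analysis was run, because by the study's methods each library came from a different mouse, and the labels name no pairs.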
